A study of Homo sapiens with 12 samples.

Results

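The comparison described here is that of SETDB1 sgRNA 9 with a non-targeting sgRNA at day 7, chosen by the sample titles: 3 libraries of each arm, 6 of the 12 libraries of the series. Both arms were THP-1, an established human cell line of monocytic type that came from an acute myeloid leukaemia. Every culture was transduced with an sgRNA, put under 1 µg/ml puromycin from 48 h on and collected at day 7, so that the arms differ by the sgRNA alone as far as the labels say. Strand-resolved counts of 45 repeat elements were obtained from 100 ng of total RNA per library, and the other 6 libraries, collected at day 4, entered the fit to estimate the spread. The design text names SETDB1 sgRNAs 6 and 9 where the titles name sgRNA 9 only, so which sgRNA each SETDB1 library carries is not settled, and 1 sgRNA without a second one is a limit of the arm as a model of SETDB1 loss. Neither separate cultures nor clones are stated, so the p-values cover the spread between libraries, and that spread may be technical. SETDB1 itself and the 9 markers of THP-1 and other blood cells that were looked up are not among the tabulated elements (0 of 9), so neither the depletion nor the cell type was checked.

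SETDB1 is a methyltransferase that trimethylates lysine 9 of histone H3, and it is brought to many repeats by KRAB zinc finger proteins through the scaffold protein TRIM28. Its known targets include endogenous retroviruses, whose long terminal repeats carry promoters, young L1 retrotransposons and some tandem satellites. An L1 copy has a promoter at its 5′ end, followed by ORF1 and by ORF2, which encodes the endonuclease and reverse transcriptase, and copies are often truncated so that the 3′ end is left. The series asks whether both strands of such elements are transcribed after SETDB1 depletion.

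Each strand of an element was taken as a feature, which gave 90 features, and 70 of them, from 39 elements, had enough counts for edgeR's quasi-likelihood test. Levels are normalised counts in CPM, taken over the table's own scaled total, because the sources used here do not give the depth of the whole libraries. The table held 38524, 57211 and 54006 counts in the SETDB1 libraries and 42445, 34554 and 27388 in the non-targeting ones, so a feature at 100 CPM rests on few reads. In the fit the biological coefficient of variation was 11.4%. At an adjusted p under 0.05, 39 features were called, 55.7% of those tested, with 21 higher (30%) and 18 lower (25.7%). The libraries of the arms did not overlap for 39 features (55.7%), 22 with SETDB1 above (31.4%) and 17 with SETDB1 below (24.3%), and 35 features were both called and free of overlap (50%).

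A rise in part of such a table can lower the rest on this scale, and the split of calls moved with the scaling. Table totals gave 26 higher and 17 lower, size factors from DESeq2 gave 17 and 18, the table less L1P1_orf2 gave 18 and 18, and no scaling at all gave 37 and 1, which raised the median log2 change of all features from 0.16 to 0.76. Without SETDB1 replicate 2 there were 10 higher features, without day 4 non-targeting replicate 2 there were 12, and with the day 7 libraries fitted alone 11, while the lower ones numbered 18, 18 and 20. In each setting that tested them, single libraries left out included, 10 features were higher: SST1, HERVL18, CER, L1P1_orf2, HERVK and L1PBa_5end plus strands, and LTR4, HERV3, ALR and SST1 minus strands. HERVL18 and CER were not tested at a minimum count of 30, nor L1P1_orf2 in the table less L1P1_orf2. When single libraries alone were left out, 14 lower and 10 higher calls held each time. No scaling left LTR26 minus strand as the only lower call, so it alone was lower in every setting tried. The scaling therefore bears on each lower value below. A fall is a fall against the scaled total of the table, which is not the same as a lower plain share of its counts.

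**Figure D1:**
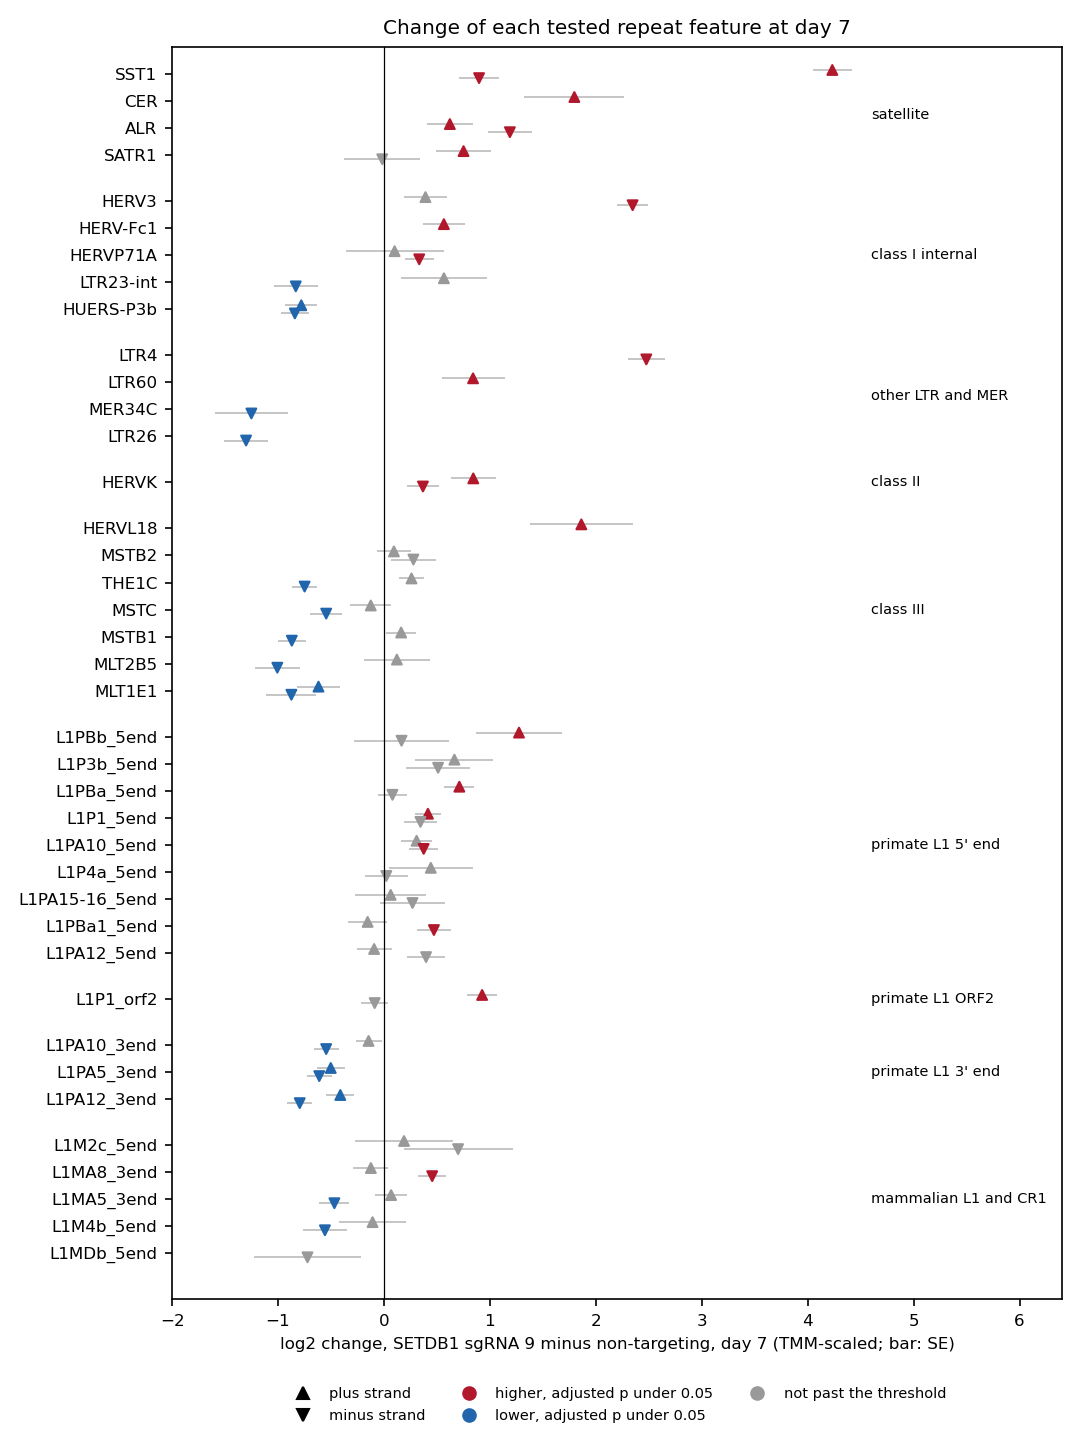
Log2 change at day 7 (SETDB1 sgRNA 9 over non-targeting sgRNA) of the tested features, by repeat class. Plus and minus strands are marked apart, and colour shows whether a feature was called higher, called lower or not called. SST1 plus strand stands at 4.23, LTR4 and HERV3 minus strands at 2.48 and 2.35, and the primate L1 3′ ends lie between -0.80 and -0.15.

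Satellites, the tandem repeats of centromeres and heterochromatin, rose. Of their 7 tested features 6 were higher (85.7%, against 30% of all tested features) and 0 lower (against 25.7%). Their median log2 change was 0.90, against 0.16 over all features. Together they took 2.72% ± 0.30 of the counts in the SETDB1 libraries and 0.731% ± 0.035 in the non-targeting ones (SD, n = 3). SST1, a tandem repeat found in clusters on several chromosomes, led them. Its plus strand stood at 18233, 13573 and 12120.2 CPM with SETDB1 sgRNA 9 and at 696, 824 and 816 CPM with the non-targeting sgRNA, an 18.8-fold rise (log2 4.23 ± 0.19, SE; adjusted p = 4.41e-20). Its minus strand rose less, from 1753, 2031 and 3051 to 4762, 4184 and 3642 CPM (1.86-fold, log2 0.90 ± 0.19; adjusted p = 0.000151). Every SETDB1 library lay above every non-targeting one on both strands, and on the plus strand the lowest SETDB1 library exceeded the highest non-targeting one by more than the whole range of the non-targeting arm.

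ALR, the alpha satellite that underlies human centromeres, rose on both strands, and its share on the minus strand did not pass the test of a difference between the arms (log2 odds 0.58 ± 0.25; adjusted p = 0.061). The minus strand held 1702, 2176 and 2577 CPM with SETDB1 sgRNA 9 and 1031, 854 and 958 CPM with the non-targeting sgRNA (2.28-fold, log2 1.19 ± 0.20; adjusted p = 1.15e-05). The plus strand held 1875, 3766 and 4277 and 2372, 2561 and 1525 CPM (log2 0.62 ± 0.21; adjusted p = 0.0139). There the arms overlapped, since SETDB1 replicate 1 lay below 2 of the non-targeting libraries, and the plus strand call was lost without SETDB1 replicate 2 (0.42), SETDB1 replicate 3 (0.40) or non-targeting replicate 3 (0.45) (log2).

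CER, a satellite, had few reads: 16, 33 and 16 counts on the plus strand in the SETDB1 libraries and 4, 5 and 3 in the non-targeting ones, or 395, 552 and 299 against 103, 147 and 106 CPM (3.47-fold, log2 1.797 ± 0.47; adjusted p = 0.00195). The arms did not overlap. SATR1, another satellite model, rose on the plus strand (log2 0.75 ± 0.26; adjusted p = 0.0139), although its highest non-targeting library (774 CPM) was above its lowest SETDB1 library (747 CPM), and the call was lost without day 4 non-targeting replicate 2 (0.62), SETDB1 replicate 2 (0.55), non-targeting replicate 2 (0.66) or non-targeting replicate 3 (0.56). SATR1 minus strand gave a log2 change of -0.016 ± 0.36 (adjusted p = 0.964), and SATR1 was named after its values were seen. SATR2 had too few counts for the test on either strand. Its plus strand held 10, 10 and 14 counts in the SETDB1 libraries and 6, 5 and 4 in the non-targeting ones.

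HERV3, a class I endogenous retrovirus, and LTR4, the long terminal repeat that flanks it, rose on the minus strand by nearly the same factor. HERV3 minus strand stood at 40907, 36400.5 and 31972 CPM with SETDB1 sgRNA 9 and at 6911, 7360.4 and 7201 CPM with the non-targeting sgRNA (5.09-fold, log2 2.35 ± 0.15; adjusted p = 1.79e-15). LTR4 minus strand stood at 13767, 12452 and 11467 and 1908, 2797 and 2057 CPM (5.56-fold, log2 2.48 ± 0.18; adjusted p = 3.03e-14). The arms were far apart for both, and the non-targeting libraries lay closer together for HERV3 than for LTR4, whose non-targeting replicate 2 was the highest of its arm.

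The plus strand of HERV3 was not called. It held 1061, 1155 and 1195 CPM with SETDB1 sgRNA 9 and 954, 854 and 780.4 CPM with the non-targeting sgRNA, and although the arms did not overlap, the log2 change of 0.39 ± 0.21 did not pass (adjusted p = 0.104). With table totals it did (0.48, adjusted p = 0.036). LTR4 plus strand, with 4, 3 and 3 counts against 0, 1 and 0, was not tested. Both strands summed, counts of LTR4 per count of HERV3 were 0.330, 0.333 and 0.347 in the SETDB1 libraries and 0.243, 0.344 and 0.258 in the non-targeting ones. This ratio, chosen after its values were seen, overlapped between the arms (two-sided exact permutation p = 0.3, n = 3; 0.1 is the smallest p that 3 against 3 allows).

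**Figure D2:**
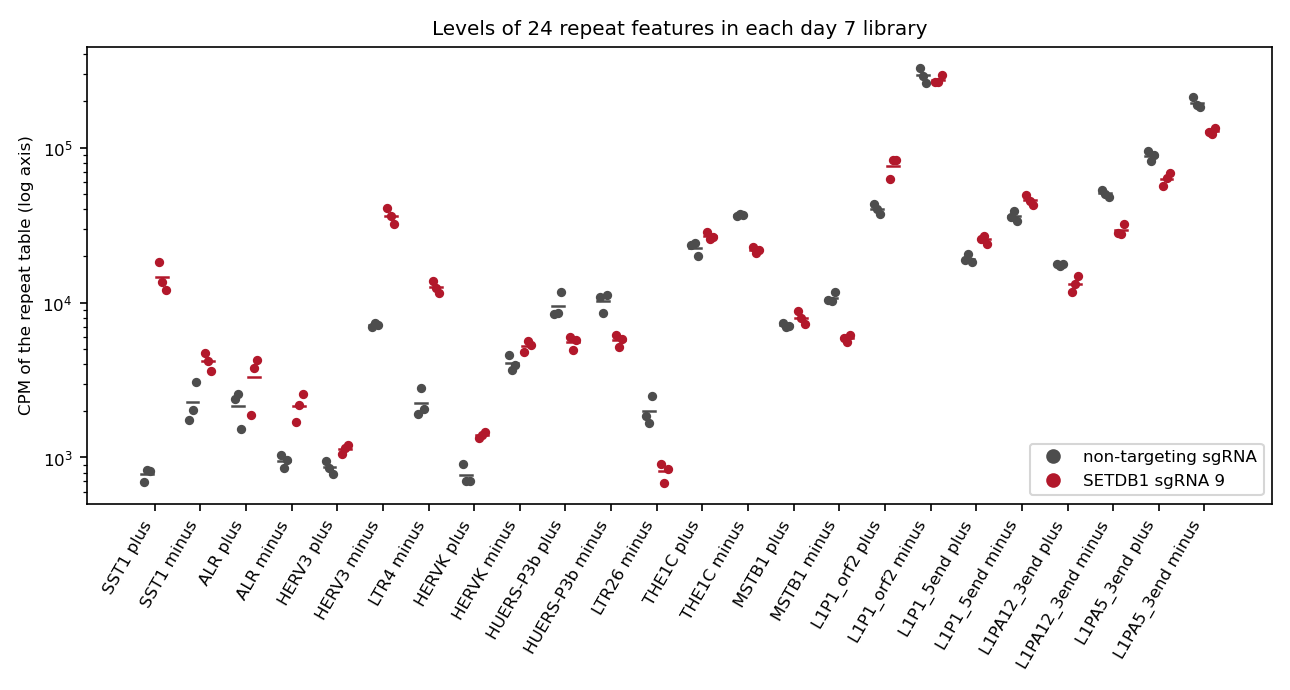
Levels in CPM (log axis) of a chosen set of features, called and not called. Each point is 1 day 7 library, with SETDB1 sgRNA 9 and non-targeting sgRNA in separate colours. For SST1 plus strand the SETDB1 points lie between 12120 and 18233 CPM and the non-targeting points between 696 and 824 CPM.

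Other class I internal models, the parts of a provirus between its long terminal repeats, had calls in both directions. HERV-Fc1 plus strand rose from 1289, 1325 and 1206 to 1776, 2008 and 1868 CPM (log2 0.57 ± 0.20; adjusted p = 0.0139). Its arms did not overlap, but the call was lost without day 4 non-targeting replicate 2 (0.44), SETDB1 replicate 2 (0.44) or non-targeting replicate 3 (0.54). No count fell on its minus strand, 0 of 421 at day 7, which allows a share of up to 0.713%, a limit that covers counting error only. HERVP71A minus strand, named after its values were seen, was called higher at 15174, 11698 and 12979 against 10186, 12100.5 and 9258 CPM (log2 0.33 ± 0.14; adjusted p = 0.0396), with arms that overlapped. That call did not hold without day 4 non-targeting replicate 2 (0.23), SETDB1 replicate 1 (0.24), SETDB1 replicate 2 (0.36), SETDB1 replicate 3 (0.35), non-targeting replicate 1 (0.31) or non-targeting replicate 3 (0.26), nor with DESeq2 size factors (0.25) or with L1P1_orf2 left out (0.31). HERVP71A plus strand gave 0.10 ± 0.46 (adjusted p = 0.867).

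HUERS-P3b fell on both strands. The minus strand went from 10856, 8568 and 11209 to 6143, 5155 and 5827 CPM (log2 -0.84 ± 0.14; adjusted p = 4.21e-06) and the plus strand from 8380.5, 8626 and 11706 to 6020.1, 4920.4 and 5752 CPM (-0.78 ± 0.15; adjusted p = 6.83e-05). On each strand the SETDB1 libraries all lay below the non-targeting ones, and unscaled the changes were -0.24 and -0.16, neither past the threshold. LTR23-int, an internal model, fell on the minus strand from 2501, 2090.3 and 1738 to 987, 1222 and 1345 CPM (-0.83 ± 0.21; adjusted p = 0.00119), also without overlap, while its plus strand gave 0.57 ± 0.40 (adjusted p = 0.248). Unscaled, LTR23-int minus strand stood at -0.23 and its plus strand passed at 1.18. Over the whole class 3 of 9 tested features were higher and 3 lower, with a median log2 change of 0.33, near the 30% higher and 25.7% lower of all tested features. Its share of the counts was 6.78% ± 0.76 against 4.12% ± 0.36 (SD, n = 3), and HERV3 is its most abundant member in the SETDB1 libraries.

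HERVK, the class II family that holds the youngest human endogenous retroviruses, rose on both strands. The plus strand held 1332, 1406 and 1457 CPM with SETDB1 sgRNA 9 and 903, 707 and 709 CPM with the non-targeting sgRNA (1.79-fold, log2 0.84 ± 0.21; adjusted p = 0.00126). The minus strand, the more abundant one, held 4786, 5673 and 5341 and 4589.9, 3680.2 and 3973 CPM (log2 0.37 ± 0.15; adjusted p = 0.0321). Neither strand had overlapping arms. The minus strand call was lost without day 4 non-targeting replicate 2 (0.24), SETDB1 replicate 2 (0.24), SETDB1 replicate 3 (0.36), non-targeting replicate 2 (0.31) or non-targeting replicate 3 (0.35), with size factors from DESeq2 (0.28) and in the table less L1P1_orf2 (0.33), and the summed element did not pass (log2 0.29 ± 0.14; adjusted p = 0.0913). Summed counts were given scaling factors of their own, so 0.29 is not on the scale of the strand values, 0.84 and 0.37.

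Of the other long terminal repeats and MER elements, LTR60 plus strand rose from 335, 471 and 319 to 691, 669 and 672 CPM, that is 13, 16 and 9 and 28, 40 and 36 counts (log2 0.84 ± 0.30; adjusted p = 0.0157). Its arms did not overlap, and the call was lost without day 4 non-targeting replicate 2 (0.71), SETDB1 replicate 2 (0.77), non-targeting replicate 1 (0.75) or non-targeting replicate 3 (0.76). LTR26, a class I long terminal repeat, had the largest fall of the table on its minus strand, from 1857, 1678 and 2483 to 913, 686 and 840.4 CPM (log2 -1.30 ± 0.21, or 2.46-fold lower; adjusted p = 4.21e-06). It was also lower without scaling (-0.69). MER34C minus strand, the other large fall, went from 17, 20 and 25 counts to 7, 20 and 13 counts, or from 438, 589 and 887 to 173, 335 and 243 CPM (-1.25 ± 0.35; adjusted p = 0.00283). Both had SETDB1 libraries that all lay below the non-targeting ones, and unscaled MER34C stood at -0.63, short of the threshold. MER101B was not tested on either strand, LTR55 had 1 count in all 6 libraries, and LTR81C was at 0 in all of them.

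Class III elements comprise the ERVL retroviruses and the MaLR elements THE1, MST and MLT1. Of their 13 tested features 1 was higher (7.69%, against 30% of all tested features) and 6 lower (46.2%, against 25.7%), with a median log2 change of -0.12. Without scaling the median became 0.47, against 0.76 over all features. There 5 of the 13 were higher and 0 lower, against 37 and 1 of all 70 tested features. HERVL18, an ERVL internal model, was the 1 higher feature of the scaled counts. Its plus strand had 14, 19 and 18 counts in the SETDB1 libraries and 5, 2 and 2 in the non-targeting ones, or 345, 318 and 336 against 129, 58.9 and 70.9 CPM (3.64-fold, log2 1.86 ± 0.49; adjusted p = 0.00195). The arms did not overlap, though the level was among the lowest tested.

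THE1C, the most abundant class III element, fell on the minus strand and not on the plus. The minus strand held 22872, 21054 and 21831 CPM with SETDB1 sgRNA 9 and 36023, 37538 and 36926 CPM with the non-targeting sgRNA (log2 -0.75 ± 0.12; adjusted p = 4.21e-06). On the plus strand the values were 28744, 25756 and 26594 and 23388, 24319 and 19935 CPM (log2 0.26 ± 0.12; adjusted p = 0.0644), so the arms were apart on both strands, in opposite directions. With table totals the plus strand passed as higher (0.34, adjusted p = 0.0146), and unscaled the minus strand stood at -0.15 and the plus strand at 0.85.

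MSTB1 had the same arrangement: its minus strand fell from 10418, 10275 and 11635 to 5921, 5589.8 and 6163 CPM (log2 -0.87 ± 0.13; adjusted p = 2.19e-06), while its plus strand stood at 7375, 7007 and 7059 and 8808, 7933 and 7302 CPM, with overlap (log2 0.16 ± 0.14; adjusted p = 0.344). MSTC minus strand fell from 9102, 8921 and 10499.5 to 7846, 5171 and 6592 CPM (-0.55 ± 0.15; adjusted p = 0.00278), a change that was 0.042 without scaling, and its plus strand gave -0.12 ± 0.19 (adjusted p = 0.632). MSTB2 passed on neither strand (0.28 ± 0.21 minus and 0.094 ± 0.16 plus; adjusted p = 0.276 and 0.662). THE1C, MSTB1, MSTB2 and MSTC are related in sequence, so the counting could have split reads between them.

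MLT1E1 fell on both strands, from 1083, 1237 and 887 to 617, 569 and 579 CPM on the minus (-0.87 ± 0.24; adjusted p = 0.00253) and from 1857, 1796 and 1277 to 1086, 987 and 1177 CPM on the plus strand (-0.62 ± 0.20; adjusted p = 0.0113). The plus strand call was lost without non-targeting replicate 1 (-0.52) or non-targeting replicate 2 (-0.55). MLT2B5, a long terminal repeat of the ERVL group, fell on the minus strand from 1135, 1384 and 1703 to 716, 686 and 672 CPM (2.01-fold lower, log2 -1.01 ± 0.21; adjusted p = 0.000151). Its plus strand overlapped at 691, 452 and 691 against 516, 765 and 355 CPM (0.12 ± 0.31; adjusted p = 0.76).

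The primate L1 family was tabulated in pieces. Of the 18 features of 5′ end models 5 were higher (27.8%, near the 30% of all tested features) and 0 lower (against 25.7%), with a median log2 change of 0.36, while of the 6 features of 3′ end models 0 were higher and 5 lower (83.3%), with a median of -0.52. The median of the 3′ ends was -0.45 with table totals, -0.62 with DESeq2 size factors and -0.56 in the table less L1P1_orf2, with 5 lower each time. Without scaling it was 0.086 with 0 calls, where 37 of all 70 tested features were higher and 1 lower. The direction of the 3′ ends against 0 was thus the same under these scalings and turned only with no scaling at all. Each class as a share of the table gave the same order: 5′ ends took 12.0% ± 0.81 of the SETDB1 libraries' counts and 8.92% ± 0.62 of those in the non-targeting arm, and 3′ ends 28.0% ± 0.77 and 39.5% ± 0.80 (SD, n = 3). Shares of 1 table are not independent of each other. Related L1 models share sequence, and the sources used here do not say how reads that match several were counted.

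L1P1 models represent the young end of the family. L1P1_5end plus strand stood at 25758, 26945 and 24072 CPM with SETDB1 sgRNA 9 and 18849.6, 20491 and 18232 CPM with the non-targeting sgRNA (log2 0.41 ± 0.12; adjusted p = 0.00538), called higher but not without day 4 non-targeting replicate 2 (0.30) or SETDB1 replicate 2 (0.31); it was named after its values were seen. The minus strand, at 49592, 45053 and 42916 and 35765, 38951 and 33556 CPM, had arms that did not overlap either but did not pass (log2 0.34 ± 0.16; adjusted p = 0.0625). It passed with table totals (0.43), with the replicate block (0.35) and without any of 4 single libraries: SETDB1 replicate 3 (0.39), day 4 SETDB1 replicate 1 (0.34), and day 4 non-targeting replicate 1 or 3 (0.36 each).

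The internal model L1P1_orf2, which took 34.6%, 36.6% and 37.4% of the counts in the SETDB1 libraries and 34.0%, 32.3% and 30.7% in the non-targeting ones, was called on its plus strand and not on its minus strand. Plus strand levels were 62816, 83479 and 83515 CPM with SETDB1 sgRNA 9 and 43501, 40158 and 37245 CPM with the non-targeting sgRNA (1.90-fold, log2 0.93 ± 0.14; adjusted p = 2.19e-06), well apart. Its minus strand, where most of these counts lay, held 265724, 267205 and 293910.0 and 328360.0, 288733 and 261317 CPM (log2 -0.087 ± 0.13; adjusted p = 0.605), with overlap. With the day 7 libraries fitted alone it was called lower (-0.31), and without scaling its change was 0.51, not past the threshold.

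Among the older 5′ ends, L1PBa_5end plus strand rose from 3017, 2885 and 3405 to 5305, 5255 and 4650.1 CPM (1.64-fold, log2 0.71 ± 0.14; adjusted p = 8.54e-05), with no overlap, and its minus strand gave 0.08 ± 0.14 (adjusted p = 0.663). L1PBa1_5end did the reverse: the minus strand rose from 2011, 2444 and 2377 to 3232, 3079 and 3137 CPM (log2 0.47 ± 0.16; adjusted p = 0.0139) and the plus strand gave -0.15 ± 0.19 (adjusted p = 0.523). The L1PBa1_5end call was lost with DESeq2 size factors (0.38) and without day 4 non-targeting replicate 2 (0.35), SETDB1 replicate 2 (0.42) or non-targeting replicate 1 (0.38). L1PBb_5end plus strand rose from 9, 6 and 5 to 26, 34 and 14 counts, or from 232, 177 and 177 to 641, 569 and 261 CPM (log2 1.27 ± 0.41; adjusted p = 0.00925). SETDB1 replicate 3 was close to the non-targeting libraries there, and the call was lost without SETDB1 replicate 2 (1.05). Its minus strand gave 0.17 ± 0.45 (adjusted p = 0.769).

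The remaining 5′ end models mostly did not pass. L1PA10_5end minus strand, named after its values were seen, was called higher at 15519, 15799 and 14809 against 12558, 12012 and 10961 CPM (log2 0.37 ± 0.14; adjusted p = 0.0216), but not with DESeq2 size factors (0.29) nor without day 4 non-targeting replicate 2 (0.26), SETDB1 replicate 2 (0.29) or non-targeting replicate 3 (0.33). Its plus strand gave 0.31 ± 0.15 (adjusted p = 0.072). L1PA12_5end gave 0.40 ± 0.18 on the minus and -0.093 ± 0.17 on the plus strand (adjusted p = 0.0537 and 0.663). L1P3b_5end gave 0.51 ± 0.30 on the minus and 0.66 ± 0.37 on the plus strand (adjusted p = 0.156 and 0.124). L1P4a_5end and L1PA15-16_5end had 4 features with log2 changes between 0.022 and 0.44, none of them called.

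Of the 3′ end models, L1PA5_3end is the youngest and by far the most abundant. Its minus strand went from 212477, 190075 and 184380.0 to 126496, 123477 and 134405 CPM (log2 -0.61 ± 0.12; adjusted p = 6.83e-05) and its plus strand from 95537, 81700.4 and 89742 to 56303, 63412 and 68725 CPM (-0.50 ± 0.13; adjusted p = 0.00195). The arms did not overlap on either strand, and unscaled the changes were -0.014 and 0.11.

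L1PA12_3end fell furthest of the 3′ ends, on the minus strand from 53687, 50581 and 47922 to 28028, 27530.5 and 32159 CPM (1.74-fold lower, log2 -0.80 ± 0.12; adjusted p = 2.19e-06; -0.19 unscaled). Its plus strand fell from 17689, 17312 and 17878 to 11719.5, 13104 and 14865 CPM (-0.41 ± 0.13; adjusted p = 0.00885; 0.21 unscaled), a call lost without SETDB1 replicate 1 (-0.32). L1PA10_3end fell on the minus strand from 37622, 37185 and 36429 to 25018, 23849 and 27359 CPM (-0.55 ± 0.12; adjusted p = 0.000254; 0.058 unscaled), and its plus strand gave -0.15 ± 0.12 (adjusted p = 0.339). In all 5 called features of the 3′ ends every SETDB1 library lay below every non-targeting one. Absence of overlap was common among calls, at 35 of the 39 called features of the table.

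A ratio of the ends of 1 subfamily within a library is free of the scaling between libraries. Counts of L1PA10_5end per count of L1PA10_3end, strands summed, were 0.539, 0.561 and 0.506 in the SETDB1 libraries against 0.315, 0.309 and 0.316 in the non-targeting ones, a ratio of means of 1.71. For L1PA12 they were 0.146, 0.145 and 0.124 against 0.0679, 0.0755 and 0.0825, a ratio of means of 1.84. The arms did not overlap for either (two-sided exact permutation p = 0.1 each, n = 3, the smallest possible). Taken strand by strand, the ratio of means between the arms was 1.90 on the minus and 1.35 on the plus strand for L1PA10, and 2.27 and 1.26 for L1PA12; the difference between the strands was not tested. These ratios were chosen after their values were seen, and they rest as much on the 3′ end counts as on the 5′ ones.

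**Figure D3:**
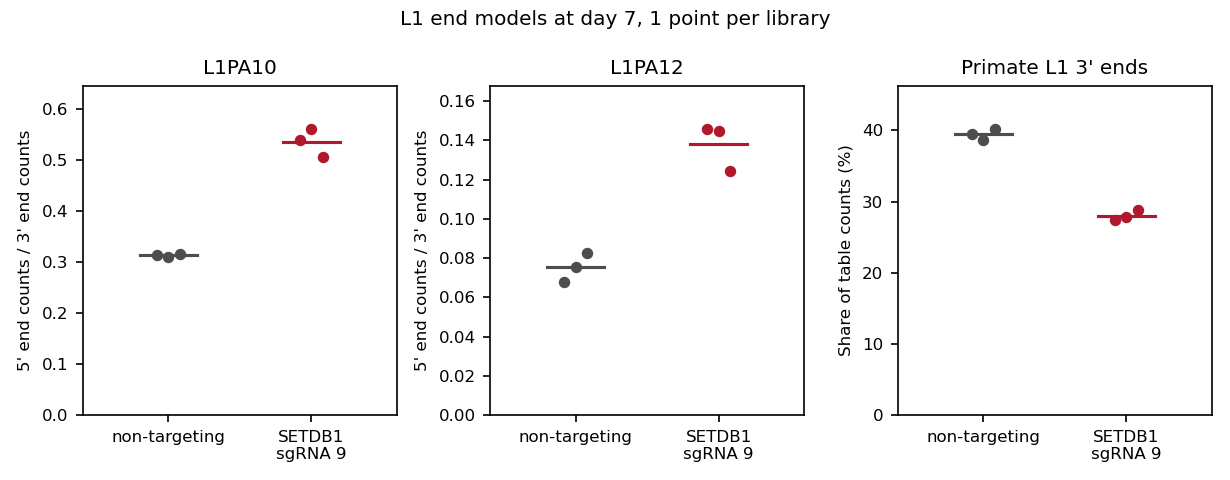
Counts of the 5′ end model per count of the 3′ end model for L1PA10 and L1PA12, strands summed, 1 point per day 7 library. A further panel gives the share of table counts in the primate L1 3′ ends. At day 7 the SETDB1 points of L1PA10 lie between 0.506 and 0.561 and the non-targeting points between 0.309 and 0.316.

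The older mammalian L1 models and CR1, a LINE of another clade, had 9 tested features (median -0.11, or 0.50 unscaled). Of these 1 was higher (11.1%, against 30% of all tested features) and 2 were lower (22.2%, near the 25.7% of all). L1MA8_3end minus strand rose from 9953, 9127 and 8017 to 12386, 12083 and 12774 CPM (log2 0.46 ± 0.13; adjusted p = 0.00401), the one 3′ end model that was higher on a strand, and the call was lost without day 4 non-targeting replicate 2 (0.34) or SETDB1 replicate 2 (0.41). L1MA5_3end minus strand fell from 18721, 16428 and 14756 to 11300.0, 10778 and 14044 CPM (-0.47 ± 0.14; adjusted p = 0.00598), lost without non-targeting replicate 1 (-0.37) and 0.13 unscaled. Their plus strands gave -0.12 ± 0.16 and 0.067 ± 0.15 (adjusted p = 0.57 and 0.745). L1M4b_5end minus strand, named after its values were seen, was called lower (-0.56 ± 0.20; adjusted p = 0.02) with arms that overlapped. That call was lost with table totals (-0.48) and without SETDB1 replicate 1 (-0.39), non-targeting replicate 1 (-0.49) or non-targeting replicate 2 (-0.47). L1M2c_5end and L1MDb_5end had no call on a tested strand, and L1M3e_5end and CR1_Mam were not tested.

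Strands were then set side by side in the 31 elements with both strands tested. Both strands were higher in 3 (ALR, HERVK and SST1) and both lower in 4 (HUERS-P3b, L1PA12_3end, L1PA5_3end and MLT1E1). In 5 the plus strand was called higher and the minus strand was not called: L1P1_5end, L1P1_orf2, L1PBa_5end, L1PBb_5end and SATR1. In 5, among them HERV3, the minus strand was called higher and the plus strand was not called, and in 8, among them THE1C, MSTB1 and MSTC, the minus strand was called lower and the plus strand was not. The remaining 6 had no call. A call on 1 strand does not show that the strands differ: in the test of the strand share given below, 2 of those 5, 3 of those 5 and 6 of those 8 passed, and L1P1_5end, SATR1, L1PBb_5end, HERVP71A, L1PA10_5end, MSTC and L1M4b_5end did not (adjusted p from 0.105 to 0.733). No element was called in opposite directions on its strands. Of the 35 tested plus strands 12 were higher (34.3%) and 4 lower (11.4%), and of the 35 minus strands 9 were higher (25.7%) and 14 lower (40%).

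The table as a whole leaned to the minus strand less in the SETDB1 libraries. The minus strand held 71.4%, 68.6% and 69.7% of their counts and 75.3%, 74.8% and 73.8% of those of the non-targeting libraries, a difference of -4.77 points with no overlap (two-sided exact permutation p = 0.1, n = 3, the smallest possible). Plus strand totals were 1.72 times as high in the SETDB1 arm, without overlap (p = 0.1, exact), and minus strand totals 1.34 times, with overlap (p = 0.2, exact). These totals are unscaled counts, and without the depth of the whole libraries they cannot be read as rises in RNA. The sources used here do not say which strand is sense to an element.

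Element by element, the minus strand share was tested in 41 elements as a ratio within a library: 12 were called (29.3%), 3 higher (7.32%) and 9 lower (22%), where the median log2 change of the odds over all 41 was itself -0.42. SST1 turned over, with 20.7, 23.6 and 23.1% of its counts on the minus strand in the SETDB1 libraries and 71.6, 71.1 and 78.9% in the non-targeting ones (log2 odds -3.30 ± 0.23; adjusted p = 6.31e-31). THE1C went from 60.6, 60.7 and 64.9% to 44.3, 44.98 and 45.1% (-1.01 ± 0.16; adjusted p = 1.52e-08), so that its more abundant strand differed between the arms. MSTB1 did likewise, from 58.6, 59.5 and 62.2% to 40.2, 41.3 and 45.8% (-1.03 ± 0.17; adjusted p = 6.44e-08). For these 3 elements each library stood on the side of 50% that its arm stood on.

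L1P1_orf2, with 12006 plus and 42474 minus counts in the SETDB1 arm and 4101 and 29908 in the other, went from 88.3, 87.8 and 87.5% in the non-targeting to 80.9, 76.2 and 77.9% in the SETDB1 libraries (-1.001 ± 0.18; adjusted p = 7.62e-07). HERV3 moved the other way, to 97.5, 96.9 and 96.4% from 87.9, 89.6 and 90.2% (1.94 ± 0.24; adjusted p = 2.53e-12). LTR23-int (-1.39 ± 0.42), MLT2B5 (-1.11 ± 0.37), L1PBa_5end (-0.63 ± 0.19), L1MA5_3end (-0.53 ± 0.17) and L1PA10_3end (-0.40 ± 0.16) were lower too, and L1MA8_3end (0.59 ± 0.17) and L1PBa1_5end (0.62 ± 0.24) higher. With limma on the log2 ratio 4 of the 12 calls were lost, those of LTR23-int, MLT2B5, L1PA10_3end and L1PBa1_5end. Single libraries ended 5 calls. L1PA10_3end was lost without day 4 SETDB1 replicate 3 (-0.40), day 4 non-targeting replicate 1 (-0.40), day 4 non-targeting replicate 3 (-0.40), SETDB1 replicate 2 (-0.28), SETDB1 replicate 3 (-0.46), non-targeting replicate 1 (-0.42), non-targeting replicate 2 (-0.42) or non-targeting replicate 3 (-0.36). L1PBa1_5end was lost without SETDB1 replicate 1 (0.58), SETDB1 replicate 3 (0.59), non-targeting replicate 1 (0.64), non-targeting replicate 2 (0.59) or non-targeting replicate 3 (0.64). LTR23-int was lost without SETDB1 replicate 3 (-1.09) or non-targeting replicate 1 (-1.18), MLT2B5 without SETDB1 replicate 3 (-0.97) or non-targeting replicate 3 (-0.78), and L1MA5_3end without SETDB1 replicate 3 (-0.49).

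**Figure D4:**
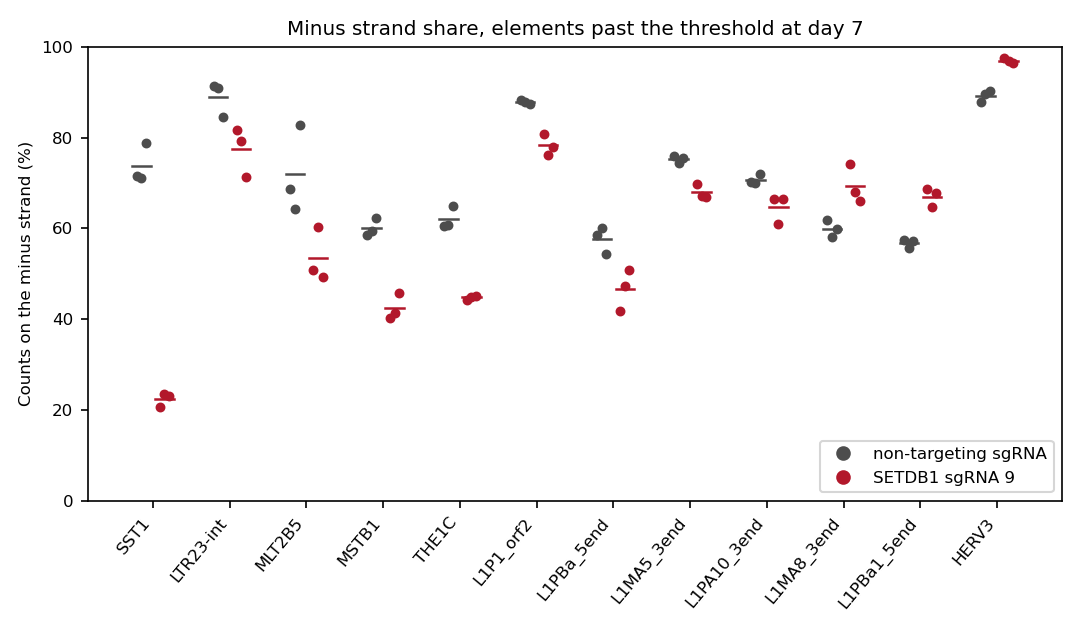
Share of each called element's counts on the minus strand (percent), 1 point per day 7 library, by arm. SST1 lies between 20.7% and 23.6% in the SETDB1 libraries and between 71.1% and 78.9% in the non-targeting ones, and HERV3 lies higher in the SETDB1 libraries.

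As a measure of how much of the table lay on the less abundant strand of its element, the smaller of the plus and minus counts of each element was summed. It came to 25.4%, 28.8% and 28.1% of the counts in the SETDB1 libraries and 24.2%, 24.6% and 25.5% in the non-targeting ones, a difference of 2.68 points (two-sided exact permutation p = 0.2, n = 3). The lowest SETDB1 library lay below the highest non-targeting one. Without L1P1_orf2 the difference was -0.0958 points (p = 1, exact). This sum leaves out the reads on the more abundant strand, so it is not an upper limit on the reads that could have a counterpart. It does not say that strands came from the same copy.

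With the strands summed, 42 elements could be tested and 21 were called (50%), 7 higher (16.7%) and 14 lower (33.3%). The largest rises were those of SST1 (5.60-fold, log2 2.49 ± 0.20), LTR4 (5.02-fold, 2.33 ± 0.21), HERV3 (4.22-fold, 2.08 ± 0.16), HERVL18 (1.26 ± 0.27) and CER (0.98 ± 0.30). The largest falls were in LTR26 (-1.36 ± 0.22), MER34C (-1.27 ± 0.33), HUERS-P3b (-0.98 ± 0.14), MLT1E1 (-0.87 ± 0.19) and L1PA12_3end (-0.85 ± 0.09). Scaling factors were worked out anew for the summed counts, so these values are not on the scale of the strand values. HUERS-P3b, at -0.98 here, stood at -0.84 on its minus and -0.78 on its plus strand. L1P1_orf2, whose plus strand rose, gave -0.082 ± 0.10 as a whole (adjusted p = 0.523). With table totals 19 elements were higher and 12 lower, so this split too depends on the scaling.

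Beside its place in the fit, day 4 was compared with day 7. The day 7 change differed from the day 4 change in 4 of 70 features (5.71%), and 17 had an unadjusted p under 0.05. It was larger at day 7 for HERV3 minus strand, 2.35 ± 0.15 against 0.84 ± 0.15 at day 4 (log2; difference 1.504 ± 0.208, adjusted p = 1.76e-06), and for LTR4 minus strand, 2.48 ± 0.18 against 1.13 ± 0.19 (difference 1.35 ± 0.26, adjusted p = 0.000387). For ALR minus strand it was smaller, 1.19 ± 0.20 against 2.49 ± 0.20 (difference -1.30 ± 0.30, adjusted p = 0.00326). L1PA12_3end minus strand had -0.80 ± 0.12 against -0.16 ± 0.12 (difference -0.63 ± 0.17, adjusted p = 0.0125), a call lost without scaling and without day 4 non-targeting replicate 3 (-0.61), SETDB1 replicate 2 (-0.66), non-targeting replicate 1 (-0.59) or non-targeting replicate 2 (-0.58).

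At day 4 itself 17 of the 70 features were called (24.3%). HERVK, HERVL18 and CER plus strands were called at day 7 and not at day 4 (0.084 ± 0.22, 0.10 ± 0.52 and 0.88 ± 0.44), but the differences did not pass (adjusted p = 0.121, 0.136 and 0.407). HERV-Fc1 plus strand, at -0.28 ± 0.19 at day 4, came closest (difference 0.85 ± 0.27, adjusted p = 0.0509); it was singled out after its value was seen. The change in minus strand share differed between the days in 2 of 41 elements (4.88%), also examined after the values were seen. For HERV3 it was 1.94 ± 0.24 at day 7 and 0.47 ± 0.25 at day 4 (log2 odds; difference 1.47 ± 0.34, adjusted p = 0.000988). For L1P1_orf2 it was -1.001 ± 0.18 and -0.094 ± 0.18 (difference -0.91 ± 0.25, adjusted p = 0.00967), a difference that did not pass with limma (adjusted p = 0.349) or without day 4 SETDB1 replicate 2 (-0.71), day 4 SETDB1 replicate 3 (-0.85), day 4 non-targeting replicate 1 (-0.82), day 4 non-targeting replicate 3 (-0.80), SETDB1 replicate 2 (-0.82) or non-targeting replicate 1 (-0.88). The L1PA10 end ratio at day 4 was 0.444, 0.492 and 0.556 in the SETDB1 libraries against 0.342, 0.409 and 0.341 in the non-targeting ones, so the arms were apart then too. For L1PA12 at day 4 it was 0.117, 0.136 and 0.148 against 0.0846, 0.118 and 0.0899, with overlap.

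The 20 features that were not tested held 0.129% of the day 7 counts, and 5 of them were at 0 in all 12 libraries. Changes in these could not be detected at this depth.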

How the data were processed

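The authors deposited raw counts, whole numbers for each strand of each repeat element, in a table per day. The submitters' processing notes name CASAVA 1.8, BWA and HTSeq but not their roles. Not given in the sources used here are the genome build, the repeat models, the treatment of reads that map to several places, the way the 45 elements were chosen and the meaning of plus and minus. Header descriptions matched all 24 columns to samples, with 0 columns left over.

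edgeR 4.0.16 (R 4.3.3) tested the counts of all 12 libraries in one quasi-likelihood fit with 4 groups and 8 residual degrees of freedom. Library sizes were table totals with TMM factors, and filterByExpr kept features at its defaults (minimum count 10, minimum total 15). The summed elements were given TMM factors of their own. Benjamini-Hochberg adjustment ran over all features tested, with a threshold of 0.05, and standard errors come from the F statistic. The minus strand share was fitted with the strands of a library as paired columns, the library as a block and terms of strand within group. Totals and shares of the table were compared by two-sided exact permutation. The scripts were tested on simulated data. No library was taken as a duplicate, since pairs within an arm differed beyond sampling noise (chi-square per degree of freedom between 2.30 and 7.91, largest p = 3.92e-09).

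Named features were those past the threshold with no overlap between the arms, up to 15 per direction, with the other strand of each, the most abundant feature of each class, and the calls of the other tests (up to 5 per direction for the day 4 comparison and the summed elements, up to 10 for the share). The members, the repeat classes and the rule were chosen with earlier results of these data known. Repeat classes follow element names. Alternatives were table totals, DESeq2 1.42.0 size factors, no scaling, L1P1_orf2 left out, no filter, a minimum count of 30, the DESeq2 test, the day 7 libraries alone, a replicate block, limma 3.58.1 for the share, and each library left out. Printed counting limits use a floor of 3 counts.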

Additional observations from a re-analysis of the deposited data

Results flagged for a closer look

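The SETDB1 effect differed between the days by an interaction test in 4 features of 70. The difference, day 7 change minus day 4 change on the log2 scale, was 1.504 ± 0.208 for HERV3 minus strand (SE; edgeR adjusted p = 1.76e-06) and 1.35 ± 0.26 for LTR4 minus strand (adjusted p = 0.000387), so the retrovirus and its long terminal repeat both stood higher against their controls at day 7. ALR minus strand went the other way, with -1.30 ± 0.30 (adjusted p = 0.00326). L1PA12_3end minus strand gave -0.63 ± 0.17 (adjusted p = 0.0125).

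The change in minus strand share differed between the days in 2 elements of 41. For HERV3 the difference was 1.47 ± 0.34 on the log2 odds scale (adjusted p = 0.000988), a further lean to the minus strand. For L1P1_orf2 it was -0.91 ± 0.25 (adjusted p = 0.00967), a lean away from it.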

How the results depend on the processing

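Of the 39 day 7 calls, 15 were lost when some single library was left out. The 21 higher features became 37 without scaling, 11 with no filter, 10 with a minimum count of 30 and 11 with the day 7 libraries alone, and the 18 lower ones became 1 without scaling, where all features are compared unscaled by construction. The DESeq2 test ended the calls of ALR, HERV-Fc1 and LTR60 plus strands and of HERVK, HERVP71A, L1PA10_5end and L1PBa1_5end minus strands. With the minimum count of 30, 27 calls held, 6 of the 39 features were not tested (HERVL18, CER, L1PBb_5end, SATR1 and LTR60 plus strands and MER34C minus strand), and the 6 calls lost were those the DESeq2 test ended, less LTR60. With no filter, or with the day 7 libraries alone, L1P1_5end and SATR1 plus strands and L1MA8_3end minus strand were lost as well. In both the cause was not tested. Left-out libraries gave 10 to 23 higher features (10 without SETDB1 replicate 2 and 12 without day 4 non-targeting replicate 2) and 15 to 18 lower ones.

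Calls of the comparison with day 4, 2 higher and 2 lower, became 7 higher with table totals, and 6 lower with DESeq2 size factors or no filter, 1 without scaling, 5 with L1P1_orf2 left out, 4 with a minimum count of 30 and 8 with the DESeq2 test; left-out libraries gave 2 to 4 and 1 to 5. For its strand share, 1 call lower became 0 with limma and 2 with the replicate block, with 0 to 3 when a library was left out and 1 higher throughout. Summed elements, 7 higher and 14 lower, became 19 higher with table totals, 26 without scaling, 14 with L1P1_orf2 left out or a minimum count of 30, and 11 with the day 7 libraries alone; 1 was lower without scaling. Left-out libraries gave 7 to 14 higher (14 without day 4 non-targeting replicate 2, 11 without non-targeting replicate 1) and 11 to 15 lower summed elements, 2 to 4 higher and 5 to 10 lower day 7 strand shares (5 without SETDB1 replicate 3), a table total ratio of 1.30 to 1.61, a minus share difference of -5.52 to -4.12 points and a lesser strand difference of 2.02 to 3.68 points, which was -0.0958 without L1P1_orf2.

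Signs turned without scaling for L1M4b_5end minus (0.051), L1MA5_3end minus (0.13), L1MA8_3end plus (0.50), L1P1_orf2 minus (0.51), L1PA10_3end minus (0.058) and plus (0.47), L1PA12_3end plus (0.21), L1PA5_3end plus (0.11), L1PBa1_5end plus (0.46), MSTC minus (0.042) and MSTC plus (0.47). The others that turned were near 0 and not called. L1PBa_5end minus was -0.012 with DESeq2 size factors, -0.098 with no filter, -0.027 with a minimum count of 30, -0.0091 with the DESeq2 test and -0.14 with the day 7 libraries alone. No filter and the day 7 libraries alone gave -0.0044 and -0.051 for L1PBb_5end minus, -0.048 and -0.095 for MLT2B5 plus, and -0.017 and -0.058 for MSTB1 plus. With a library left out L1MA8_3end plus ranged from -0.26 to 0.027, L1P1_orf2 minus from -0.21 to 0.0030, L1PBa_5end minus from -0.050 to 0.18, L1PBb_5end minus from -0.047 to 0.51 and MLT2B5 plus from -0.068 to 0.44.

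Correlations of same-numbered deviations between the arms at day 7 were -0.00097, 0.31 and -0.054, and those of different-numbered ones lay between -0.17 and 0.15. So few libraries cannot decide whether replicate numbers pair the arms. With the replicate block 39 features were called, 38 of them shared; HERVK minus strand was lost (log2 0.37, adjusted p = 0.0517) and L1P1_5end minus strand gained (0.35, adjusted p = 0.0282). Features near the filter rest on few counts, so that small changes in them were not detectable at this depth.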
